A study of Homo sapiens with 8 samples.

Results

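The 9 genes described here encode the enzymes that write, copy and remove DNA methylation: UHRF1, UHRF2, DNMT1, DNMT3A, DNMT3B, TET1, TET2, TET3 and TDG. They were chosen by name and found by Entrez gene ID in the deposited count tables, 9 of 9 of them among the 27936 genes with an ID, and all 9 passed the filter on low counts that left 14455 genes for testing. The counts came from poly(A) RNA of HEK293, an immortalised human embryonic kidney line, in 8 libraries. In the knock-out (KO) arm, 4 libraries carried the genotype label HEKg1/C9 and were named TIP60 KO, 2 with sgRNA1 and 2 with sgRNA2. In the control arm, 4 libraries carried the label HEKg1, again 2 with each guide number. Doxycycline at 1 µg/ml for 3 days, which induces the guide RNAs, was given to both arms, so no library came from untreated cells. The labels do not explain the genotype names, the targets of the guides in the controls or whether a line is a clone. Nor do they say whether replicates were separate cultures, so p-values measure the spread between these libraries, which may be technical. TIP60 is a lysine acetyltransferase encoded by KAT5, and the question stated for the series was which genes differ between KO and control.

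In human cells a methyl group is placed on cytosines that precede a guanine. DNMT3A and DNMT3B place it on unmethylated DNA, while UHRF1 recognises the half-methylated sites left by replication and brings in DNMT1 to copy the mark to the new strand. TET1, TET2 and TET3 oxidise the methyl group, and the glycosylase TDG cuts out the most oxidised forms so that base excision repair can restore a plain cytosine. TIP60 is known to bind UHRF1 protein and to be found in a complex with UHRF1 and DNMT1. Protein and DNA methylation were not measured in the libraries described here.

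Gene counts per library summed to between 3723992 and 18841774, the smallest being Control sgRNA1 replicate 2. KAT5 itself (gene ID 10524, chromosome 11) stood at 18.8 ± 0.965 CPM (counts scaled by library size and TMM factor; SD, n = 4) in KO and 46.8 ± 2.12 CPM in control libraries (log2 fold change -1.32 ± 0.064; edgeR adjusted p = 6.71e-13), so its mRNA was lower but present in each KO library. RNASEH2C covers 38.6% of its exonic bases on the other strand, and the strand setting of the counting is unknown. Of the 9 genes, only DNMT1 shares exonic bases with another gene, 0.847% of them with S1PR2. Neurofilament transcripts typical of HEK293 were abundant, NEFM with a mean of 12408 CPM in KO and 8385 CPM in control libraries (38.9% of its exonic bases are overlapped on the other strand). Of the kidney-lineage genes, EYA1 had means of 35.2 CPM in KO and 22.1 CPM in control libraries, SALL1 32.7 and 31.3 CPM and WT1 13.3 and 17.1 CPM, while PAX2 and LHX1 were under 1 CPM in both arms. Summed markers of other cell types ran from 8.12 to 8.94 CPM in KO and 4.31 to 5.98 CPM in control libraries for leukocytes (6 genes), 24.8 to 28.6 and 18.8 to 29.2 CPM for fibroblasts (6 genes), 3.05 to 4.26 and 0 to 0.414 CPM for endothelium (6 genes), and 1.57 to 2.23 and 0.570 to 0.966 CPM for hepatocytes (6 genes). PTPRC, CD3E, DCN, CDH5 and ALB, picked from these markers, were near 0, the highest mean being 0.24 CPM. Others stood higher, COL1A1 with means of 17.8 CPM in KO and 15.7 CPM in control libraries. KDR stood at 2.10 and 0.130 CPM. CD68 stood at 6.79 and 4.22 CPM (81.7% of its exonic bases are overlapped on the same strand). All tested markers of leukocytes (2), endothelium (1) and hepatocytes (1) were higher in KO at an edgeR adjusted p under 0.05. None of the 3 tested fibroblast markers passed that threshold. In bulk libraries fewer cells of a type and less RNA per cell cannot be told apart.

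TET1 and UHRF1 had the largest changes among the 9 genes, at 50.5% and 65.1% of their control levels. DNMT3A, DNMT3B and TET2 were also lower in KO, at 76.3%, 75.4% and 80.9% of control. TDG fell to 92.7% and DNMT1 rose to 108% of control, and neither TET3 nor UHRF2 passed the test. In the comparison of KO with control (edgeR quasi-likelihood F test with a term for the guide number, Benjamini-Hochberg adjusted p under 0.05 over all 14455 genes), 6 of the 9 genes were called lower and 1 higher. Of all tested genes, 31.2% were called lower, 31.8% higher and 63.0% called in all. The median log2 fold change was -0.303 over the 9 genes and 0.00684 over all tested genes, while the median absolute log2 fold change was 0.303 and 0.287. Abundance differed between directions in the whole table: of the 4532 genes at 30 to 100 CPM in controls, 40.5% were called lower and 28.7% higher, and of the 2719 genes at 10 to 30 CPM, 30.5% and 32.8%. Of the 2093 genes at 100 to 300 CPM, where UHRF1 and TDG lie, 49.1% were lower and 22.1% higher, and of the 506 genes above that, DNMT1 among them, 56.7% and 15.2%. For 5 of the 9 genes every KO library lay below every control library, which held for 25.6% of tested genes. For 1 every KO library lay above, which held for 27.3% (52.9% had no overlap either way).

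**Figure D1:**
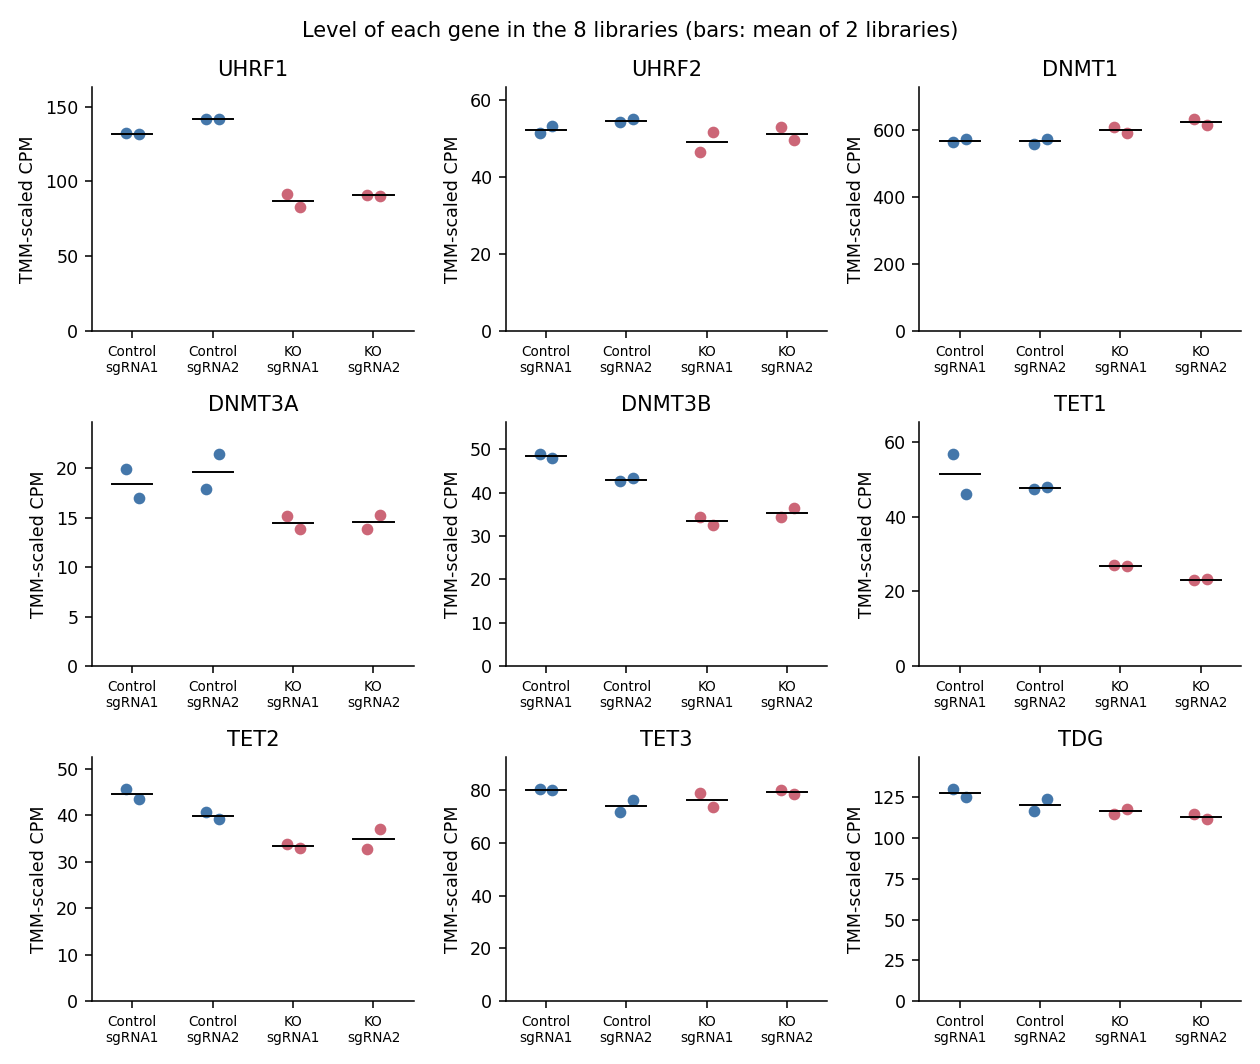
Expression of the 9 DNA methylation and demethylation genes in TMM-scaled CPM on linear axes from 0, with the 4 groups side by side, a point for each library (blue for control, red for KO) and a bar at the mean of each pair. The KO points of UHRF1, DNMT3A, DNMT3B, TET1 and TET2 lie below all control points, those of DNMT1 lie above, and those of UHRF2, TET3 and TDG overlap with the controls.

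UHRF1 (gene ID 29128; chromosome 19, 4903080 to 4962154, GRCh38.p14) reads half-methylated DNA and is required for the mark to be inherited. Its level was 91.5 and 82.6 CPM in the KO sgRNA1 libraries and 91.0 and 90.5 CPM in the KO sgRNA2 libraries. In control libraries it was 132 and 131 CPM with sgRNA1 and 141 and 142 CPM with sgRNA2. The arms did not overlap, and 3 of the 4 KO libraries sat close to each other, with KO sgRNA1 replicate 2 below them. UHRF1 had a log2 fold change of -0.62 ± 0.045 (SE; 95% interval -0.71 to -0.53; edgeR adjusted p = 2.46e-10). A processed pseudogene, AC112777.1, is 99.4% identical to a UHRF1 transcript over 1423 bases and was not among the genes of the tables, so how reads shared with it were counted is unknown.

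DNMT1 (gene ID 1786; chromosome 19, 10133346 to 10194953), the enzyme that copies methylation after replication, was the most abundant of the 9 genes. Its level was 609, 592, 633 and 617 CPM in the KO libraries, those of sgRNA1 given before those of sgRNA2, and 563, 574, 559 and 574 CPM in the control libraries in the same order. All KO libraries were above all control libraries, though the lowest KO value and the highest control value lay close together. Its log2 fold change was 0.11 ± 0.043 (95% interval 0.02 to 0.20; edgeR adjusted p = 0.0295). That call was lost without any one KO library or either Control sgRNA2 library (adjusted p from 0.0525 to 0.124). Within neither guide did DNMT1 pass the test, with log2 fold changes of 0.08 ± 0.063 (edgeR adjusted p = 0.318) for sgRNA1 and 0.14 ± 0.062 (adjusted p = 0.0629) for sgRNA2, where 8 of 16 alternative settings did call it.

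UHRF2 (gene ID 115426; chromosome 9, 6413199 to 6507054), the relative of UHRF1 that does not replace it in copying methylation, was measured at 46.4, 51.5, 52.9 and 49.4 CPM in KO and at 51.2, 53.1, 54.1 and 54.9 CPM in control libraries. The arms overlapped, 2 KO libraries lying below the lowest control. The log2 fold change of -0.09 ± 0.053 (95% interval -0.20 to 0.02) did not pass the test (edgeR adjusted p = 0.153). In CPM per kilobase of gene length, UHRF1 and UHRF2 stood in a ratio of 1.37 ± 0.121 (SD, n = 4) in KO and 1.97 ± 0.0455 in control libraries. The ratio of DNMT1 to UHRF1, also per kilobase, was 6.51 ± 0.205 in KO, with a lowest value of 6.28. It was 3.93 ± 0.179 in control libraries, with a highest value of 4.12.

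Start-site sequence is shown for UHRF1 because it had the largest change in the maintenance pair. The first of its 3 windows is given, and the span of the gene begins before it, at 4903080. DNMT1, chosen after its values were seen, is shown because it is the working partner of UHRF1 and differed in the other direction. Each window runs from 250 bases before to 50 bases after an annotated start (RefSeq, GRCh38.p14), 5′ to 3′ on the gene's strand, and capitals mark matches to TTTNNCGC, an E2F-like motif searched on both strands. The UHRF1 window is chr19:4909251-4909550 on the plus strand and the DNMT1 window chr19:10194904-10195203 on the minus strand.
UHRF1: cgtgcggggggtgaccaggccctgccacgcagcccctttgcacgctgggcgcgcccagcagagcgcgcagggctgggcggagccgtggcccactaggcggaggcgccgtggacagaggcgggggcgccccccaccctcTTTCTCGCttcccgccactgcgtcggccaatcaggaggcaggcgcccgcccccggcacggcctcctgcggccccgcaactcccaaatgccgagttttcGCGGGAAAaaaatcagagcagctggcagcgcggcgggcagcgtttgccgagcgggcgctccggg
DNMT1: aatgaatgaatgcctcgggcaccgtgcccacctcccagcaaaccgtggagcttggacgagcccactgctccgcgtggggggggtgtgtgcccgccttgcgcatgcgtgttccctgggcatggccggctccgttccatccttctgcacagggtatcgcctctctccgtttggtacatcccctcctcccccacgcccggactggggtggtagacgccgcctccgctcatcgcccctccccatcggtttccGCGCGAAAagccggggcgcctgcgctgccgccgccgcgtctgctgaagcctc
The UHRF1 window shown held 2 matches, the most of its 3 windows, which began 112 bases before the start on the gene's strand and 14 bases before it on the other. The next UHRF1 window held 1 match and the last 0, and the DNMT1 window held 1. RefSeq gave 20 such windows for the 9 genes, and 3 of the 20 held the motif, 2 of UHRF1 and 1 of DNMT1, as did 6.89% of all 35116 windows. E2F factors drive genes at the start of DNA synthesis. The motif was present in windows of both genes, of which UHRF1 was lower and DNMT1 slightly higher in KO. A part of E2F factors in these differences was not tested. A match of letters is not a measured binding site.

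The enzymes that place new methylation were both lower. DNMT3B (gene ID 1789; chromosome 20, 32762385 to 32809356) stood at 34.5 and 32.5 CPM in the KO sgRNA1 libraries and 34.5 and 36.4 CPM in the KO sgRNA2 libraries. Control levels were 48.9 and 48.0 CPM with sgRNA1 and 42.6 and 43.3 CPM with sgRNA2. The arms did not overlap, and the sgRNA1 controls were the highest. The log2 fold change was -0.40 ± 0.061 (95% interval -0.52 to -0.27; edgeR adjusted p = 1.01e-05).

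DNMT3A (gene ID 1788; chromosome 2, 25227874 to 25342590) was read less often, with 63 to 264 counts in a library. Its level was 15.2, 13.8, 13.8 and 15.3 CPM in KO and 19.9, 17.0, 17.9 and 21.4 CPM in control libraries. The arms did not overlap, and the control libraries were the more spread. DNMT3A had a log2 fold change of -0.41 ± 0.087 (95% interval -0.59 to -0.23; edgeR adjusted p = 0.000334), and the call was lost when all libraries were thinned to the total of the smallest (-0.31, adjusted p = 0.0559). The ratio of DNMT3B to DNMT3A in CPM per kilobase was 3.46 ± 0.136 in KO and 3.53 ± 0.479 in control libraries. DNMT1 made up 92.1 ± 0.293% of the summed level per kilobase of the 3 methyltransferases in KO and 89.0 ± 0.516% in control libraries, with no overlap between the arms.

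TET1 (gene ID 80312; chromosome 10, 68560337 to 68694487), an oxidase that carries its own CXXC domain for binding unmethylated CG sites, had the largest difference of the 9 genes. Its level was 27.0 and 26.8 CPM in the KO sgRNA1 libraries and 23.0 and 23.3 CPM in the KO sgRNA2 libraries. Control levels were 56.7 and 46.1 CPM with sgRNA1 and 47.4 and 48.0 CPM with sgRNA2. The arms were far apart, and Control sgRNA1 replicate 1 was the highest. KO and control differed by -1.01 ± 0.062 on the log2 scale (95% interval -1.14 to -0.89; edgeR adjusted p = 1.88e-11), and 1.02% of all tested genes had a lower one. TET1 was the only one of the 9 genes called lower with a fold of at least 2, which held for 1.11% of tested genes. It came just under that fold with library totals (-0.98) or without Control sgRNA1 replicate 1 (-0.97), and further under it with thinned counts (-0.82).

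TET2 (gene ID 54790; chromosome 4, 105145875 to 105279803), the family member without a CXXC domain, stood at 33.8, 33.0, 32.6 and 36.9 CPM in KO and at 45.6, 43.4, 40.7 and 39.1 CPM in control libraries. The arms did not overlap, but the highest KO library came near the lowest control. TET2 had a log2 fold change of -0.30 ± 0.063 (95% interval -0.43 to -0.17; edgeR adjusted p = 0.000298).

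TET3 (gene ID 200424; chromosome 2, 73983631 to 74135498), the oxidase known for its work on the paternal genome after fertilisation, was measured at 78.9, 73.8, 80.2 and 78.4 CPM in KO and at 80.4, 80.0, 71.6 and 76.3 CPM in control libraries. The values of the arms were intermingled, and the highest and the lowest library were both controls. The log2 fold change of 0.02 ± 0.050 (95% interval -0.08 to 0.13; edgeR adjusted p = 0.707) did not pass the test. Its interval does not reach the values of TET1 or TET2, but a difference between genes was not tested.

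The 3 TET genes thus stood in other proportions in the arms. Per kilobase of transcript, TET1 made up 36.2 ± 1.80% of the TET sum in control libraries (range 33.8 to 38.2%) and 23.3 ± 1.99% in KO libraries (range 21.6 to 25.5%). TET3 made up 43.4 ± 1.61% in control and 55.7 ± 1.76% in KO libraries. TET2 kept a share of 20.4 ± 0.681% in control and 21.0 ± 1.10% in KO libraries, while the sum of the 3 was 13.5 ± 0.835 CPM per kilobase in control and 10.6 ± 0.203 in KO libraries. The share taken by TET1 and that taken by TET3 did not overlap between the arms.

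**Figure D2:**
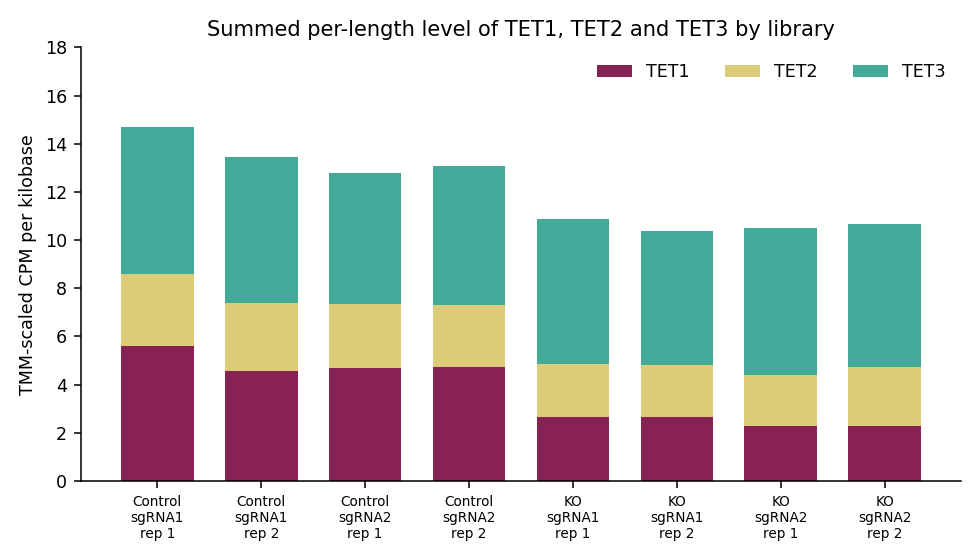
Levels of TET1, TET2 and TET3 in TMM-scaled CPM per kilobase, stacked from 0 for each of the 8 libraries. TET1, the lowest segment, takes 33.8 to 38.2% of the bar in the control libraries and 21.6 to 25.5% in the KO libraries, and the TET3 segments are of like height in both arms.

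The start of TET1 is shown because its change was the largest. The window is chr10:68560087-68560386 (GRCh38.p14, plus strand) and capitals mark CG, the dinucleotide that these enzymes act on.
TET1: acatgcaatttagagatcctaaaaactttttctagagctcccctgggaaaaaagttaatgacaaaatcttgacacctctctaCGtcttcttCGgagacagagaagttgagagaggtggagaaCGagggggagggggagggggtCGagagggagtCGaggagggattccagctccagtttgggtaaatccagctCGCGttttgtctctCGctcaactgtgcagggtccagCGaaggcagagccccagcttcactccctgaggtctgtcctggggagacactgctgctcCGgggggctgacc
It held 10 CG, and the other TET1 windows held 6 and 11, against a median of 14 over all 35116 windows. The UHRF1 windows held 36 to 46, the DNMT1 window 30, the TET3 windows 33 to 45, and the DNMT3B window 3. That DNMT3B window, chr20:32779602-32779901, lies inside the gene, which begins at 32762385, and no window covered that end. Among the other genes lower in KO, CG counts varied widely, from 6 to 11 in the TET1 windows to 36 to 46 in the UHRF1 windows. The SP1-like motif GGGCGG, searched on both strands and present in 45.0% of all windows, was found in windows of UHRF1, UHRF2, DNMT3A, TET2 and TET3 and not in those of DNMT1, DNMT3B, TET1 or TDG. The cell-cycle homology motif TTTGAA, present in 15.2% of all windows, was found in 1 window of DNMT3A and 1 of TET2.

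TDG (gene ID 6996; chromosome 12, 103965872 to 103988874) removes the oxidised bases that TET enzymes make. Its level was 115, 118, 115 and 112 CPM in KO and 130.0, 125, 117 and 124 CPM in control libraries. The arms overlapped, with 3 KO libraries below the lowest control. The log2 fold change was -0.11 ± 0.043 (95% interval -0.20 to -0.02; edgeR adjusted p = 0.0325), and the call was lost in 8 of 17 alternative settings, among them scaling by library totals (-0.08, adjusted p = 0.117) and leaving out KO sgRNA1 replicate 1, KO sgRNA2 replicate 2, Control sgRNA1 replicate 1 or Control sgRNA2 replicate 2 (adjusted p from 0.0627 to 0.0986). A processed pseudogene, TDGP1, is 97.7% identical to a TDG transcript over 1230 bases and was not among the genes of the tables.

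**Figure D3:**
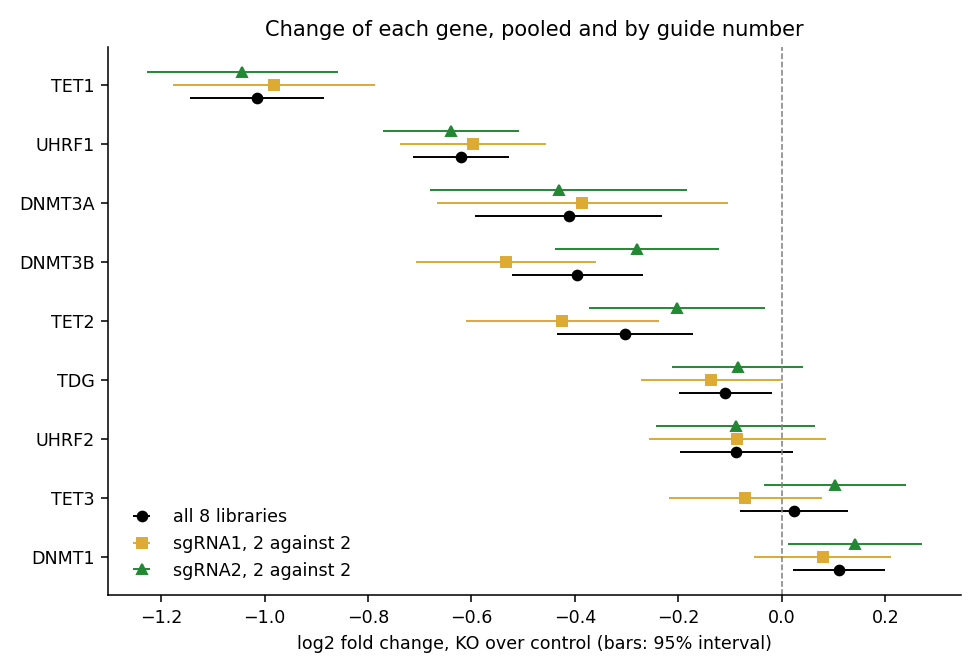
Log2 fold change of KO against control with its 95% interval for the 9 genes, over all 8 libraries and within each guide number, with a line at 0. TET1 lies near -1 and UHRF1 near -0.6 in all 3 comparisons, while TET3 and UHRF2 have intervals that include 0 in all 3.

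Within each guide number 5 of the 9 genes were called lower and none higher, and they were the same 5, namely TET1, UHRF1, DNMT3A, DNMT3B and TET2. Of all tested genes, 47.6% were called with sgRNA1, 23.3% lower and 24.3% higher, and 51.2% with sgRNA2, 25.4% lower and 25.7% higher. The log2 fold changes of TET1 were -0.98 ± 0.093 with sgRNA1 (edgeR adjusted p = 1.67e-07) and -1.04 ± 0.088 with sgRNA2 (adjusted p = 2.87e-08). Those of UHRF1 were -0.60 ± 0.067 (edgeR adjusted p = 1.24e-06) and -0.64 ± 0.063 (adjusted p = 1.81e-07). Both genes thus had nearly the same change with either guide. DNMT3A stood at -0.39 ± 0.134 (edgeR adjusted p = 0.0242) and -0.43 ± 0.118 (adjusted p = 0.00536). Those calls of DNMT3A were lost in 4 and 3 of 16 alternative settings, including, for sgRNA1, without KO sgRNA1 replicate 2 (-0.33) or Control sgRNA1 replicate 1 (-0.22) and, for sgRNA2, without KO sgRNA2 replicate 1 (-0.36) or Control sgRNA2 replicate 2 (-0.31). DNMT3B stood at -0.53 ± 0.083 (edgeR adjusted p = 4.13e-05) and -0.28 ± 0.075 (adjusted p = 0.00465), a call lost for sgRNA2 with thinned counts (-0.32, adjusted p = 0.05005). TET2 stood at -0.42 ± 0.089 (edgeR adjusted p = 0.000758) and -0.20 ± 0.081 (adjusted p = 0.0450). The sgRNA2 call of TET2 was lost in 11 of 16 alternative settings, the replicate block (adjusted p = 0.0647) and the absence of KO sgRNA2 replicate 1 (-0.12, adjusted p = 0.348) among them, and with thinned counts its log2 fold change there was 0.10. The pairs with the 2 guides share no library, since each guide number has its own controls.

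The difference between the guides was itself tested, and it called none of the 9 genes and none of the 14455 (638 genes had an unadjusted p under 0.05 in edgeR; other settings called up to 25). Among the 9 genes, DNMT3B alone had an unadjusted p under 0.05, with a guide difference of 0.25 ± 0.11 on the log2 scale (edgeR adjusted p = 0.99996). Its control libraries stood -0.18 apart on the log2 scale, sgRNA2 against sgRNA1 (edgeR adjusted p = 0.595), which did not pass the test. Between the control lines, 4 genes or 0.0277% of the table were called, and none of the 9. Between the KO lines no gene was called (613 had an unadjusted p under 0.05 in edgeR, and up to 13 were called in other settings), TET1 having the smallest p of the 9 with a log2 difference of -0.22 (edgeR adjusted p = 0.993).

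Levels of different genes can be compared only per length, here as CPM per kilobase of the length given in the tables. In control libraries the order was DNMT1 (103 ± 1.42 CPM per kilobase), TDG (38.2 ± 1.67), UHRF1 (26.3 ± 1.08), UHRF2 (13.3 ± 0.400), DNMT3B (9.87 ± 0.690), TET3 (5.85 ± 0.309), TET1 (4.90 ± 0.478), DNMT3A (2.82 ± 0.296) and TET2 (2.75 ± 0.188). TET3 and TET1 overlapped there, as did DNMT3A and TET2, and the other neighbours did not. TPM and DESeq2 size factors rescale all genes of a library alike, so the same order there is no separate check. In KO libraries the first 6 places were the same, and TET1 followed at 2.47 ± 0.214 CPM per kilobase, TET2 at 2.23 ± 0.128 and DNMT3A at 2.15 ± 0.123. TET1 there overlapped with TET2, and TET2 with DNMT3A, whereas TET3 at 5.90 ± 0.213 stood clear of TET1.

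**Figure D4:**
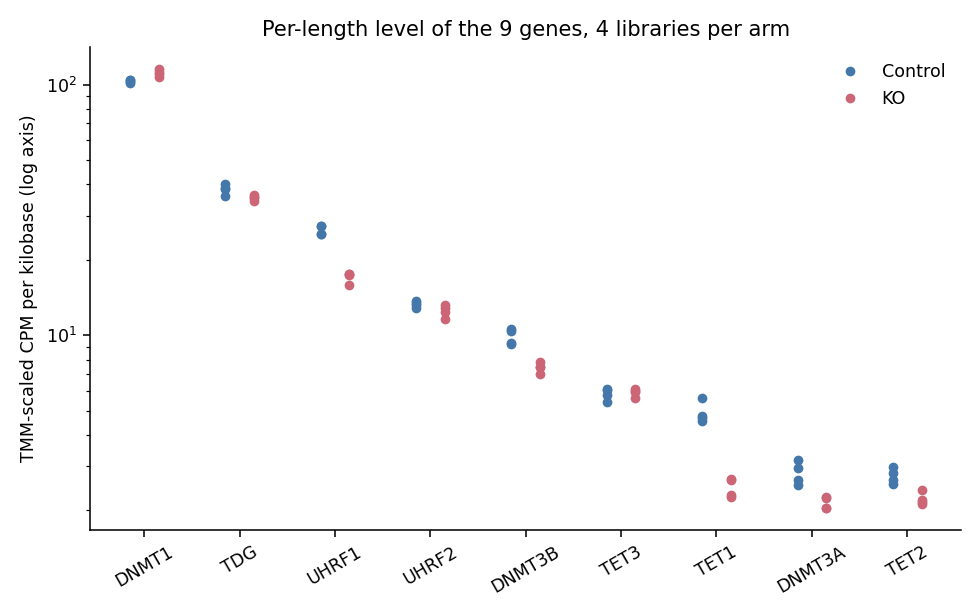
Level of the 9 genes per length, in CPM per kilobase on a log axis, with a point for each library, in the order of the control means. DNMT1 leads in both arms, and TET1 moves from beside TET3 in the control libraries to beside TET2 in the KO libraries.

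Genes whose profile over the 8 libraries was nearest to that of TET1, by the root mean square difference of centred log2 CPM, were BCAT1 (0.0571), TMEM123 (0.0745) and ELOVL6 (0.0782). BCAT1 encodes a cytosolic enzyme of branched-chain amino acid breakdown and ELOVL6 a fatty acid elongase. Their log2 fold changes were -0.97 ± 0.050, -0.95 ± 0.049 and -1.05 ± 0.054. Nearest to DNMT1 were FXR1 (0.0202), PPP6R1 (0.0257) and CHMP6 (0.0257), with log2 fold changes of 0.10, 0.09 and 0.08.

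Proteins that work with the 9 enzymes were followed in lists by textbook role, which were chosen with earlier results of these data known. Of 12 partners of the methyltransferases and UHRF1, 11 were tested, of which 7 were called lower and 2 higher (median log2 fold change -0.22). The shares over all tested genes were 31.2% lower and 31.8% higher. CDCA7, which directs the remodeller HELLS to chromatin and is mutated along with DNMT3B and ZBTB24 in an immunodeficiency with loss of DNA methylation, fell from 185 to 107 CPM (-0.80 ± 0.042; edgeR adjusted p = 2.10e-12). ZBTB24, known to activate CDCA7, fell by 0.67 ± 0.054. HELLS itself stood at -0.11 ± 0.046 (edgeR adjusted p = 0.0446). NSD2, which writes a histone mark that DNMT3A reads, stood at -0.42 ± 0.040. DMAP1, a DNMT1-binding subunit of the TIP60 complex, rose by 0.38 ± 0.054 on the same scale.

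Of 16 genes that make and recycle S-adenosylmethionine, the methyl donor of DNMT enzymes, 15 were tested, 4 were called lower, 3 higher and 8 not called. MAT2A, which makes the donor, fell from 468 to 346 CPM (-0.43 ± 0.050), MTHFD1 of the folate cycle stood at -0.51 ± 0.042 and AHCY, which clears the product, at -0.33 ± 0.042. Readers of methylated CG were called lower in 5 of 8 tested cases and higher in 1, with MBD2 at -0.34 ± 0.052 and ZBTB4 at -0.32 ± 0.055. Proteins that bind unmethylated CG through CXXC domains were lower in 7 of 8 cases and higher in none, among them FBXL19, which went from 166 to 98.9 CPM (-0.75 ± 0.042), and KMT2A (-0.39 ± 0.064; 17.9% of its exonic bases are overlapped on the same strand). These shares stand beside 31.2% called lower among all tested genes, and genes of a list are not independent.

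Of 21 demethylation partners and base excision repair genes, 20 were tested, 10 were lower and 7 higher, and the largest difference was a rise. GADD45B, a stress-induced protein linked to active demethylation, stood at 89.2 ± 7.33 CPM in KO and 6.32 ± 1.74 CPM in control libraries (3.72 ± 0.098; edgeR adjusted p = 4.78e-17). GADD45A rose from 19.9 to 51.0 CPM (1.38 ± 0.11). The glycosylases NEIL2 (-0.96 ± 0.11) and NTHL1 (-0.73 ± 0.073), which start base excision repair of oxidised bases, fell, so the list held changes in both directions around a small fall of TDG. Of 10 genes for histone H3 lysine 9 methylation and its readers, 9 were tested, 4 were lower and 4 higher, with CBX3 at -0.48 ± 0.043 and ATF7IP at 0.23 ± 0.043. The counts of both lists stand beside 31.2% called lower and 31.8% higher among all tested genes.

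UHRF1 and DNMT1 are known to be transcribed with the cell cycle, so 20 G1/S genes are given beside them. All 20 were tested, 12 being called lower and 4 higher around a median of -0.19 on the log2 scale. Among all tested genes 31.2% were called lower and 31.8% higher. Most of the 20 lie above 100 CPM in controls. There 49.1% (100 to 300 CPM) and 56.7% (over 300 CPM) of tested genes were called lower, and 22.1% and 15.2% higher. MCM2, a subunit of the replicative helicase, stood at -0.49 ± 0.040, CDC45 at -0.42 ± 0.044 and MCM5 at -0.33 ± 0.039, while RRM2, a ribonucleotide reductase subunit, stood at 0.42 ± 0.044. PCNA, the clamp that holds DNMT1 at the replication fork, had a log2 fold change of 0.00 (edgeR adjusted p = 0.940). UHRF1 had a larger absolute log2 fold change than these 5 genes. The sign of DNMT1 was that of the 4 genes called higher, RRM2 among them, and the opposite of that of the 12 called lower. Other gene models overlap 23.6% of the exonic bases of MCM2 and 20.2% of those of RRM2. The part of the cell cycle in the UHRF1 difference was not tested.

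**Figure D5:**
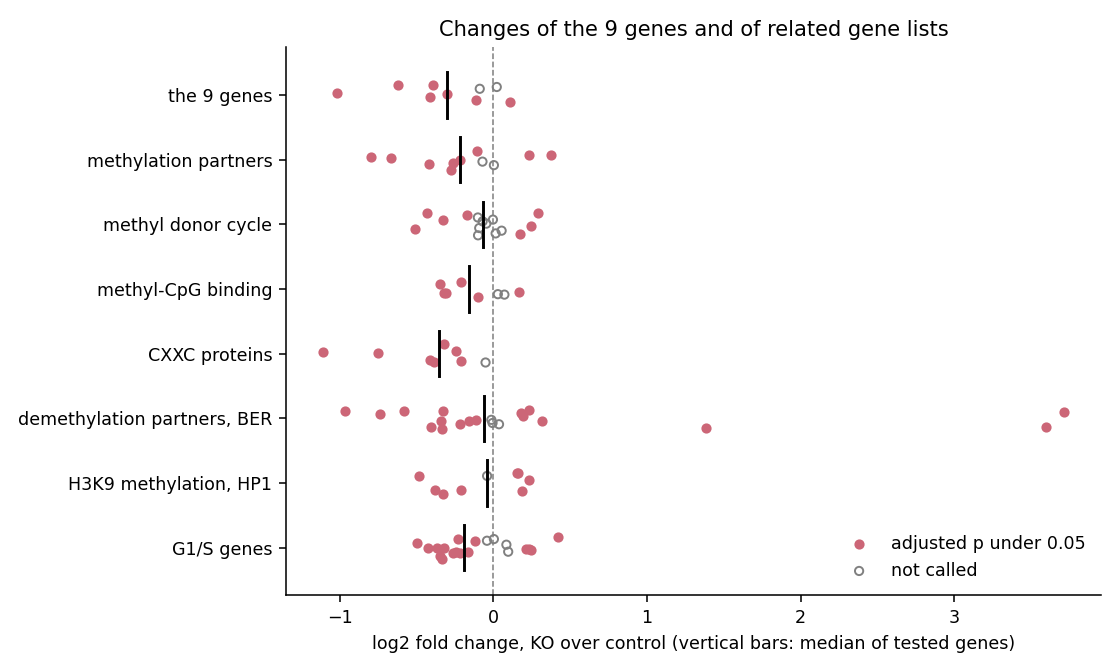
Log2 fold changes of KO against control for the 9 genes and the tested genes of 7 related lists, a point per gene (filled where the adjusted p was under 0.05), with each median as a vertical bar. The 8 CXXC proteins all lie below 0, while the other lists hold points on both sides of 0, with GADD45B and GADD45G far above.

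Most germline genes known for promoter methylation in somatic cells had few counts in both arms, while TEX15 was at 52.1 CPM or more in each library. Of 20 such genes, 17 did not pass the filter, with at most 20 counts over an arm, and 3 of these had no count. TEX14, which encodes a protein of germ cell bridges, rose from 5.13 ± 1.12 to 35.4 ± 2.83 CPM (2.78 ± 0.12), and PIWIL2, a partner of small RNAs in germ cells, from 15 to 99 counts over the arm (2.16 ± 0.37). PIWIL2 was under 1 CPM in the controls, where 55.6% of the 1416 tested genes were called higher and 1.27% lower, and TEX14 between 1 and 10 CPM, where 33.9% were called higher and 16.0% lower. TEX15, another germ cell gene, went from 100.3 to 53.0 CPM (-0.91 ± 0.054). The methylation of these promoters was not measured.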

How the data were processed

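RNA from 8 HEK293 samples had been made into stranded poly(A) libraries, per the labels' protocols. The authors deposited raw counts, with no normalisation, in a table for each library. Reads had been counted with featureCounts on hg38, per the submitters' processing notes. The aligner, annotation release and strand setting were not given in the sources used here. The 459 entries of 28395 without a gene ID held 0.0284 to 0.0425% of the counts and were left out. Totals ran from 3723992 to 18841774, and the 9 genes had 63 to 12110 counts in a library.

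Low genes were removed with filterByExpr (4 groups, count of at least 10, total of at least 15). KO was compared with control in edgeR 4.0.16 (R 4.3.3; TMM scaling, quasi-likelihood F test) with the guide number as a covariate (5 residual degrees of freedom). Contrasts within guides and between lines came from a model of 4 group means (4 residual degrees of freedom), in which a pair of libraries is judged by the spread in all groups. EdgeR's biological coefficient of variation came to 0.0473. Benjamini-Hochberg adjustment ran over the 14455 tested genes. Intervals are 95% intervals of the log2 fold change. The scripts were tested on simulated data.

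Symbols, positions and start-site windows came from RefSeq (GRCh38.p14), and 9 of 9 genes matched. Near copies were sought among annotated transcripts (at least 95% identity over at least 160 bases). Replicate numbers did not pair the libraries (correlations of same-numbered deviations from -0.053 to 0.028). The 9 genes and the lists were chosen with earlier results of these data known. Genes named are KAT5, the 9 genes, up to 4 tested genes per list with the smallest p, and the 3 nearest profiles to the 9 genes' highest and lowest log2 fold changes. Outside this rule, and chosen after their values were seen, were PCNA, HELLS, GADD45G, EHMT2 and the markers SALL1, WT1, PAX2, LHX1, PTPRC, CD3E, DCN, CDH5 and ALB. A gene of the lists is not reported here, although it stayed in every count. Alternatives were DESeq2 size factors, library totals, no filter, a filter at 1 CPM in 4 or more libraries, DESeq2 1.42.0, limma-voom (limma 3.58.1), thinned counts, a replicate block, no guide term, and each library left out.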

Additional observations from a re-analysis of the deposited data

Results flagged for a closer look

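UHRF1 in KO sgRNA1 replicate 2, at 82.6 CPM, lay far from the other 3 KO libraries, which were at 90.5 to 91.5 CPM, by Dixon's criterion for a group of 4. That criterion marks some groups by chance, and the log2 fold change of UHRF1 without this library was -0.61. TET3 was lower in both KO libraries than in both controls of sgRNA1 and higher in both KO libraries than in both controls of sgRNA2. The difference between the guides was 0.17 ± 0.096 on the log2 scale and did not pass the test (edgeR adjusted p = 0.99996).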

How the results depend on the processing

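Over 17 alternatives each for 9 genes in KO against control, 135 of 153 values kept their direction and their side of the threshold, 16 lost a call and 2 changed sign. TET1, UHRF1, DNMT3B and TET2 kept their calls in 17 of 17. The number of the 9 genes called higher was 0 with no filter and 0 to 1 over the libraries left out in turn, since DNMT1 lost its call. TET3, never called, ran from -0.02 to 0.05251 with a library left out, and was -0.01783 without Control sgRNA2 replicate 1 and -0.009264 without KO sgRNA2 replicate 1. With the replicate block, 8942 genes were called in KO against control (9109 without it) and the 9 genes kept their calls there. Thinning to the smallest library left 4618 calls in sgRNA2 (7394 before) and turned TET2 in sgRNA2 to 0.10. The guide difference called 11 genes with no filter, 1 with the replicate block and 0 to 25 with a library left out, 25 without Control sgRNA1 replicate 1, 23 without Control sgRNA1 replicate 2 and 3 without KO sgRNA2 replicate 1. Between the control lines 86 genes were called with no filter, 2 with the CPM filter, 1 with thinned counts and 2 to 116 with a library left out, 63 without Control sgRNA1 replicate 1 and 116 without Control sgRNA1 replicate 2. Between the KO lines 11 were called with no filter and 0 to 13 with a library left out, 13 without KO sgRNA2 replicate 1 and 1 without KO sgRNA1 replicate 2. COL1A2, a fibroblast marker with few counts, was -0.43 with limma-voom, -0.0397 with no guide term and -0.43 to 0.57 with a library left out. The causes were not tested. DNMT3A had the lowest count of the 9 genes in a library, 63, which carries a counting error of 12.6%.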

Other observations

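GADD45G, the third member of the GADD45 family and named after its values were seen, had 62 counts over the KO libraries and 3 over the controls and was called higher (edgeR adjusted p = 2.02e-05), as were GADD45A and GADD45B. Of the 1416 tested genes under 1 CPM in control libraries, where GADD45G lies, 55.6% were called higher. EHMT2, a histone H3 lysine 9 methyltransferase whose partner EHMT1 was at 51.2 CPM in KO and 64.1 CPM in control libraries, had a mean of 0.137 CPM in KO and 0.0345 CPM in control libraries and was not tested. How reads that map to more than 1 place were counted is unknown, so these values do not show whether EHMT2 is expressed.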
